A study of Mus musculus with 6 samples.

Results

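The 8 genes described here belong to the glucocorticoid and stress response: the corticosteroid receptor genes Nr3c1 and Nr3c2, the glucocorticoid-induced genes Fkbp5, Sgk1 and Per1, and Crh with its receptor genes Crhr1 and Crhr2. They were taken by name from the 37273 genes of the mm9 (NCBIM37) GENCODE annotation, and all 8 were found. H4K5ac, acetylation of lysine 5 on the tail of histone H4, was mapped by ChIP-seq in the hippocampus of adult C57/BL6 mice, labelled 6 months old. In the fear-conditioned group (FC), animals had received foot shocks in a context, and in the control group (CON), animals were placed in the same context without shock. Tissue of both groups was collected after a memory test in that context on the third day. Each group had 1 H4K5ac-ChIP library, 1 mock library precipitated with non-specific IgG (IgG-IP) and 1 library of sheared DNA that was not precipitated (input). No replicate library was available for any value, so every interval below is a 95% interval for counting error only and every ratio compares a pair of libraries, not conditions.

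Glucocorticoids reach the hippocampus from the adrenal cortex and act through a receptor pair, the high-affinity mineralocorticoid receptor (encoded by Nr3c2) and the lower-affinity glucocorticoid receptor (encoded by Nr3c1), both of which are abundant in this tissue and take part in memory of stressful events. The hormone-bound receptors enter the nucleus and bind glucocorticoid response elements, short palindromes near or within target genes such as Fkbp5, Sgk1 and Per1. Upstream in the axis, the peptide hormone CRH drives pituitary and adrenal release through CRHR1, while CRHR2 binds mainly the related urocortins. Acetylated histone H4 is a mark of open and transcribed chromatin.

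The mm9 reference sequence around letter matches to the response element is shown for Fkbp5, Sgk1 and Per1 because the H4K5ac values below are given at these places. The intronic match of Fkbp5 was picked because it lies in a region of H4K5ac enrichment called below. The pattern searched on both strands was GNACA and TGTNC with 3 bases between them, where N is any base. It matched 22 times in the promoters and bodies of 5 of the 8 genes, 10 times in Fkbp5, 6 in Nr3c2, 3 in Sgk1, 2 in Per1 and 1 in Crhr2, and had no match in Nr3c1, Crh or Crhr1. Of these, 19 lay in gene bodies, which differ widely in length, and no share over the bodies of other genes was computed. A promoter was the 5 kb upstream of the TSS (transcription start site), and 8.19% of 37223 annotated promoters of that length held at least 1 match. Fkbp5 held 3 in its promoter, a number reached or passed by 8 promoters, 0.0215% of all. Each sequence below is written 5′ to 3′ on the strand of the gene, with the matched letters in capitals. The first 3 lie in the Fkbp5 promoter on the minus strand, at 0.66, 1.51 and 4.61 kb before the TSS, the fourth in an Fkbp5 intron 97.2 kb after it, the fifth in Sgk1 on the plus strand and the last pair in Per1 introns on the plus strand, 1.87 and 4.21 kb after the TSS.
Fkbp5 promoter, chr17:28655111-28655151: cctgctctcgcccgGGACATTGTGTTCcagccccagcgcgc
Fkbp5 promoter, chr17:28655963-28656003: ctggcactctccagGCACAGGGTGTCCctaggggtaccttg
Fkbp5 promoter, chr17:28659059-28659099: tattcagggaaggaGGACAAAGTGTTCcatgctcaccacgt
Fkbp5 intron, chr17:28557253-28557293: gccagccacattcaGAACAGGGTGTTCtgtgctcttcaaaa
Sgk1 intron, chr10:21713494-21713534: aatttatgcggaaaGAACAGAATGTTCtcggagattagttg
Per1 intron, chr11:68910565-68910605: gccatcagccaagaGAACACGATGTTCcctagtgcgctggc
Per1 intron, chr11:68912905-68912945: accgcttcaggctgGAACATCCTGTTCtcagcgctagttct

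Per1 is also a known target of cAMP signalling and of the circadian clock, so the cAMP response element (TGACGTCA) and the E-box (CACGTG) were searched on both strands as well. Of all promoters, 3.99% held the former and 43.4% the latter. The cAMP response element had no match in the Per1 promoter and 1 in its body. It also had 1 match in the Crh promoter, 3 in the Sgk1 body and 1 in the Nr3c2 body. No share over the bodies of all genes was computed. In Per1, on the plus strand, the cAMP response element is shown in capitals in an intron 1.99 kb after the TSS, and the E-box at its 2 matches in the promoter.
Per1 intron, chr11:68910690-68910725: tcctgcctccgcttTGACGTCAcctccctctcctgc
Per1 promoter, chr11:68908371-68908404: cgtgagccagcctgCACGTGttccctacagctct
Per1 promoter, chr11:68908555-68908588: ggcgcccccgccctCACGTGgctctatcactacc

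Depth ranged from 14549689 reads in FC IgG-IP to 45673239 in FC input, and the H4K5ac-ChIP libraries of FC and CON held 31605738 and 35962226. Read density is given as RPKM, reads per kb of sequence and per 1000000 aligned reads. Of the hippocampal and neuronal markers, 6 of 8 in FC and 4 of 8 in CON had a body density at least 1.5 times IgG-IP, with medians of 1.97 and 1.55 times. Of the glial markers, 5 and 6 of 6 passed, of the microglial and vessel markers 3 of 3 in both, of the pituitary and hypothalamic markers 3 of 5 in both and of markers of other tissues 3 and 1 of 8, where 55.0% and 50.6% of all genes passed. The pituitary and hypothalamic markers had medians of 1.51 and 1.53 times and those of other tissues 1.2 and 0.846. In whole tissue, fewer cells with acetylated chromatin at a gene and less acetylation per cell cannot be told apart.

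Fkbp5 had the highest H4K5ac density of the 8 promoters. Fkbp5 encodes a co-chaperone of HSP90 that lowers the hormone affinity of the glucocorticoid receptor, and the gene spans 118 kb at chr17:28536040-28654469 on the minus strand with 5 transcripts. Its promoter held 308 H4K5ac reads in FC and 318 in CON, densities of 1.95 RPKM (1.74 to 2.18) and 1.77 (1.58 to 1.97), which rank the promoter in place 24 of 22367 protein-coding genes in each library. The median coding promoter stood at 0.557 and 0.545 RPKM.

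The control libraries were not high there. In IgG-IP the Fkbp5 promoter had 0.399 RPKM in FC and 0.303 in CON, and in input 0.543 and 0.304. H4K5ac exceeded IgG-IP by 4.89 times (3.34 to 7.42) in FC and 5.83 times (3.88 to 9.15) in CON, and input by 3.59 (2.90 to 4.46) and 5.81 times (4.34 to 7.91). All 20 bins of 500 bp within 5 kb of the TSS lay between 0.949 and 2.97 RPKM in FC and between 0.834 and 2.45 in CON, so the signal covered the whole interval. After the TSS, FC input was also high in the bin from 2.0 to 2.5 kb. It had 1.88 RPKM there, from 43 reads, beside 2.21 in H4K5ac, from 35. In the 20 kb before the promoter the density was 0.645 and 0.501 RPKM, and in the 20 kb after the gene 0.410 and 0.336.

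**Figure D1:**
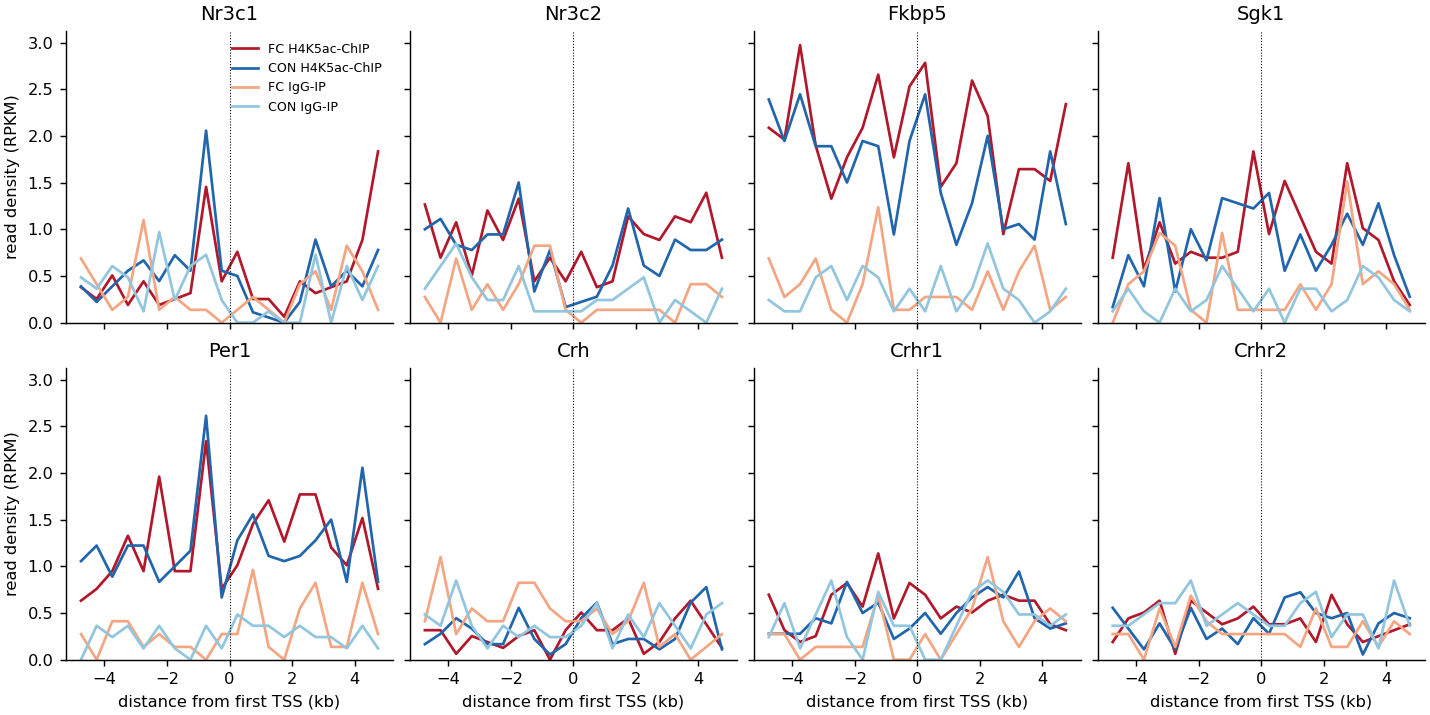
Read density (RPKM, vertical axis) in 500-bp bins by distance from the first TSS (kb, horizontal axis) for the 8 genes. H4K5ac-ChIP and IgG-IP of FC and CON are drawn as separate lines. In H4K5ac-ChIP, Fkbp5 stayed between 0.834 and 2.97 RPKM in every bin of both libraries, while Crh stayed at or below 0.779 RPKM.

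At the 3 promoter matches shown above, H4K5ac within 500 bases was 2.03, 2.37 and 1.81 RPKM in FC and 1.51, 1.87 and 1.92 RPKM in CON, from nearest to farthest. Among the intronic matches, the one at 97.2 kb was picked for display because it lies in a region called over IgG-IP. A high density there thus follows from the choice. It had 56 reads in each library, 1.75 RPKM in FC and 1.54 in CON, where the mean of the whole gene body was 0.790 and 0.698. The other 6 intronic matches of Fkbp5 ranged from 0.718 to 1.5 RPKM in FC and from 0.494 to 1.32 in CON. A match in Fkbp5 was therefore not always a place of high signal.

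Sgk1 encodes a serum- and glucocorticoid-induced kinase that regulates ion channels and transporters. It spans 118 kb at chr10:21601990-21719709 on the plus strand, with 13 transcripts from 7 TSS. In the promoter before the first TSS, which also overlaps the small RNA gene SNORD23, density was 0.886 RPKM in FC and 0.784 in CON, and IgG-IP had 0.399 and 0.230. Within 1 kb of the fourth TSS, at 110 kb, the gene had 123 and 114 reads, 1.95 and 1.58 RPKM, the highest values of any Sgk1 TSS in both libraries. The first TSS followed in FC with 1.2 RPKM and had 0.987 in CON, and the other 5 lay between 0.443 and 0.973 in both. IgG-IP at the fourth TSS had 0.481 and 0.546 RPKM. The response element match of Sgk1 shown above, at 111.5 kb from the first TSS, lay shortly before the fifth TSS at 111.7 kb. It had 0.562 and 0.549 RPKM, below the mean of the gene body of 0.836 and 0.804. That was the lowest of the 3 Sgk1 matches in both libraries. Their medians were 0.812 and 0.933 RPKM and their highest values 0.937 and 1.15, so others lay above the body mean.

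Per1 encodes a repressor of the circadian clock and is also induced directly by glucocorticoids. The gene is short, 14.7 kb at chr11:68908719-68923462 on the plus strand, and its promoter overlaps the neighbouring gene Vamp2, so reads there cannot be assigned to either gene. The promoter had 1.05 RPKM in FC and 1.08 in CON, above 92.9% and 95.9% of coding promoters, while IgG-IP had 0.206 in both. H4K5ac exceeded IgG-IP by 5.09 times (3.00 to 9.31) and 5.23 times (3.18 to 9.17), and input by 1.55 (1.24 to 1.94) and 3.04 times (2.28 to 4.11). The FC input library was high at this promoter, with 0.679 RPKM against 0.355 in CON. The highest bin was the one from 1.0 to 0.5 kb before the TSS, with 2.34 and 2.61 RPKM from 37 and 47 reads, where input had 1.27 and 0.225 RPKM. The 20 kb before the promoter were also high, at 0.900 and 0.995 RPKM, so the signal was not limited to Per1.

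The Per1 body had the highest density of the 8 genes, 0.968 RPKM (0.881 to 1.06) in FC and 0.834 (0.758 to 0.915) in CON. Cut into 3 equal stretches, it stood at 1.26 and 1.15 RPKM in the stretch next to the TSS and at 0.818 and 0.543 in the one next to the TTS (transcription termination site). Around the response element matches at 1.87 and 4.21 kb the values were 1.34 and 1.25 RPKM in FC and 0.988 and 1.40 in CON. The intronic cAMP response element had 1.51 and 1.02 RPKM, and the promoter E-boxes had 1.29 and 0.881 in FC and 1.22 and 0.912 in CON.

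The corticosteroid receptor genes Nr3c2 and Nr3c1 had body densities above the coding median of 0.549 RPKM in FC and 0.541 in CON, as did Fkbp5, Sgk1, Per1 and Crhr1. Nr3c2 (chr8:79423341-79768911, plus strand) is the longest member, at 346 kb with 8 transcripts, and its promoter overlaps the predicted gene Gm10649. The body of Nr3c2 had 0.622 RPKM in FC and 0.633 in CON, from 6797 and 7869 reads, and the promoter 0.797 and 0.790 RPKM. In 3 equal stretches of the body, density lay between 0.589 and 0.660 RPKM in both libraries. The 6 intronic response element matches of Nr3c2 lay between 0.469 and 1.03 RPKM in FC and between 0.439 and 1.15 in CON.

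Nr3c1 (chr18:39570199-39650955, minus strand, 80.8 kb, 9 transcripts from 5 TSS) had 0.753 RPKM over the body in FC and 0.801 in CON, with 0.394 and 0.440 in IgG-IP and 0.331 and 0.444 in input. The body exceeded input by 2.27 times (2.11 to 2.44) in FC, above 98.3% of coding genes, and by 1.80 times in CON, above 77.3%. Nr3c1 had the lowest GC content of the members, 39.0%. Relative to the median gene of like GC content (within 1%), its log2 body ratio to IgG-IP came to 1.02 in FC and 0.85 in CON, the largest of the 8 genes in both.

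The Nr3c1 promoter had a lower density than the body in both libraries. It stood at 0.424 (0.329 to 0.538) and 0.578 RPKM (0.473 to 0.701), and exceeded IgG-IP by 1.34 times (0.824 to 2.26) in FC and 1.29 times (0.878 to 1.93) in CON. Within 1 kb of the 5 TSS, density ran from 0.253 to 0.854 RPKM in FC and from 0.083 to 0.723 in CON, and the lowest value in each library was at the third TSS, from 16 and 6 reads. At the first TSS, with 0.712 and 0.723 RPKM, H4K5ac exceeded IgG-IP by 5.18 times (1.89 to 19.8) in FC and 2.98 times (1.41 to 7.27) in CON. The bin from 1.0 to 0.5 kb before it was the highest of the promoter, at 1.46 and 2.06 RPKM from 23 and 37 reads.

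Crh, the gene of the releasing hormone, had a promoter ratio below 1 in all 4 comparisons with IgG-IP or input. The gene has a single transcript of 2.00 kb at chr3:19593401-19595396 on the minus strand. Its promoter had 34 and 41 reads, 0.215 RPKM in FC and 0.228 in CON, with 0.495 and 0.315 in IgG-IP and 0.495 and 0.456 in input. H4K5ac thus stood at 0.435 times IgG-IP (0.264 to 0.715) in FC and at 0.723 times (0.432 to 1.23) in CON, and relative to input at 0.435 (0.287 to 0.643) and 0.5 (0.334 to 0.736). The 20-kb flanks on both sides were equally low, between 0.215 and 0.234 RPKM. The body held only 23 and 24 reads, and both intervals of its ratio to IgG-IP include 1, at 0.882 (0.421 to 1.95) and 0.847 (0.414 to 1.81).

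In RPKM, the CRH receptor genes lay between Crh and the glucocorticoid-induced genes. That order did not hold for the body ratios to input, where Crhr2 was below Crh in both groups and Crhr1 in CON. The Crh body stood at 0.739 times input (0.427 to 1.25) in FC and 1.39 times (0.718 to 2.76) in CON. Those wide intervals include the receptor ratios that lay below them, so this reversal is within counting error. Crhr1 (chr11:103994169-104036837, plus strand, 42.7 kb) had a body density of 0.693 RPKM in FC and 0.611 in CON and a promoter density of 0.519 and 0.384. Its body exceeded IgG-IP by 1.74 and 1.67 times and input by 0.975 (0.897 to 1.06) and 1.29 times, so FC Crhr1 was not above input. Crhr2 (chr6:55040043-55083010, minus strand, 43.0 kb) had 0.487 and 0.419 RPKM over the body. Its FC body exceeded IgG-IP by 1.48 times (1.27 to 1.74), its CON body by 1.02 times (0.891 to 1.18), and the ratios to input were 0.684 and 0.900. The Crhr2 promoter stood at 1.32 (0.800 to 2.25) and 0.653 times IgG-IP, so that it too was not above a control beyond counting error.

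**Figure D2:**
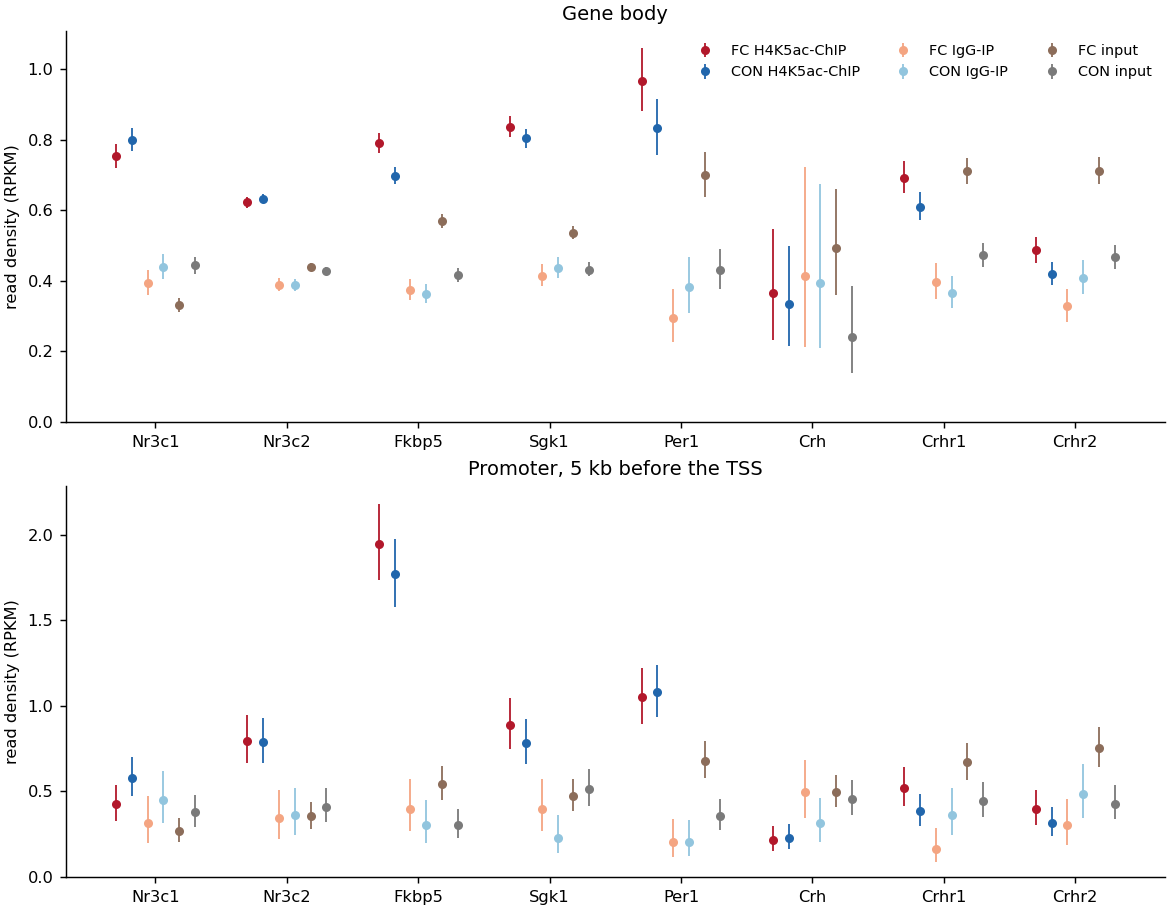
Read density (RPKM) over the promoter and gene body of the 8 genes in each of the 6 libraries, with exact 95% Poisson intervals for counting error. In H4K5ac-ChIP the Fkbp5 promoter stands at 1.95 RPKM (FC) and 1.77 (CON), and Crh lies at or below its IgG-IP and input values over the promoter.

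In the FC library the body densities ran in the order Per1, Sgk1, Fkbp5, Nr3c1, Crhr1, Nr3c2, Crhr2 and Crh, from 0.968 to 0.365 RPKM. Neighbours in this order whose counting intervals overlapped were Sgk1 and Fkbp5, Fkbp5 and Nr3c1, Nr3c1 and Crhr1, and Crhr2 and Crh. In CON the order was Per1, Sgk1, Nr3c1, Fkbp5, Nr3c2, Crhr1, Crhr2 and Crh, from 0.834 to 0.334 RPKM. There the intervals of Per1, Sgk1 and Nr3c1 overlapped each other, as did those of Nr3c2 and Crhr1 and of Crhr2 and Crh. Exon density in FC and CON was 0.765 and 0.857 times intron density in Fkbp5 and 0.721 and 0.698 times in Per1. It was 1.02 and 1.08 times in Sgk1 and 1.24 and 1.13 times in Nr3c2. In input the same ratio was 1.22 and 1.02 for Fkbp5 and 1.00 and 0.731 for Per1. For Sgk1 it was 1.23 and 1.31, and for Nr3c2 1.36 and 1.07. The H4K5ac ratios of these genes thus lay below those of input, except for Nr3c2 in CON. Nr3c1 also lay below input in both groups, but Crhr1 and Crhr2 lay above it, so the members had no common pattern.

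Counted against IgG-IP at a ratio of at least 1.5, the bodies of 6 of 8 members passed in each group, where 55.0% of all genes passed in FC and 50.6% in CON. Relative to the median gene of like GC content, 1 member passed in each group, Nr3c1, beside 16.2% and 14.5% of all genes. Crh did not pass in either group. Crhr2 was the other member below 1.5 in both. Against input, 2 bodies passed in FC (Nr3c1 and Sgk1) and 4 in CON (Nr3c1, Fkbp5, Sgk1 and Per1), beside 22.7% and 41.2% of all genes. The median ratio to IgG-IP over the 8 members was 1.82 for FC and 1.74 for CON, and over all genes 1.61 and 1.51.

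Over promoters, 5 members passed 1.5 times IgG-IP in FC (Nr3c2, Fkbp5, Sgk1, Per1 and Crhr1) and 4 in CON (the same without Crhr1), beside 46.6% and 42.8% of all promoters. With promoters of 2 kb, Nr3c1 and Crhr2 were added and Nr3c2 was lost in FC, and Nr3c1 was added in CON, where 58.4% and 53.0% of all promoters passed. Relative to promoters of like GC content, Crhr1 was lost in FC and Nr3c1 was added in both, beside 23.7% and 22.1%. Against input the 5 that passed were Nr3c1, Nr3c2, Fkbp5, Sgk1 and Per1 in each group, where 25.2% of promoters passed in FC and 36.7% in CON. The CRH receptor promoters had 0.774 and 0.862 times input in Crhr1 and 0.529 and 0.740 times in Crhr2. A promoter count above 50 reads was reached by 7 of 8 members in each group, all but Crh, and by 65.0% and 68.1% of all promoters.

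**Figure D3:**
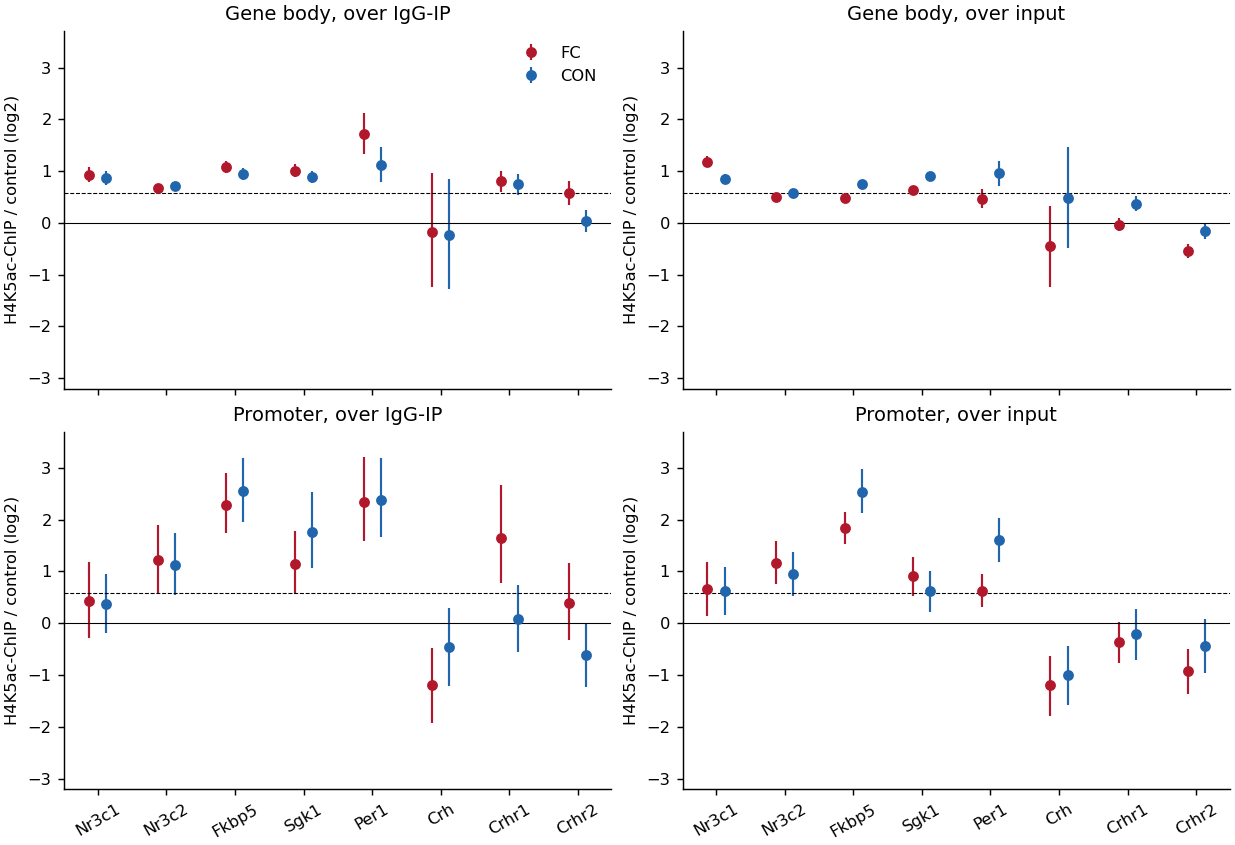
Ratio of H4K5ac-ChIP read density to IgG-IP and to input on a log2 axis for the 8 genes, over the promoter and the gene body, in FC and CON, with exact 95% binomial intervals. The promoters of Fkbp5 and Per1 have the highest ratios to IgG-IP, 4.89 to 5.83 times, and the Crh promoter lies below 1 in both groups.

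Regions of local enrichment over IgG-IP were called in the body or promoter of 5 of 8 members in each group, Nr3c1, Nr3c2, Fkbp5, Sgk1 and Per1, and in 26.4% of all genes in FC and 28.2% in CON. Against input the same number of members, 5 in each group, held a region, beside 20.9% and 28.6% of all genes. Many member regions took as expectation the genome-wide rate, which after scaling is that of the H4K5ac-ChIP library itself. The calls with either control are therefore not independent. Crh, Crhr1 and Crhr2 held none over IgG-IP. Long genes have more room for a region, so the number per 100 kb is given beside the count of each gene, and over all coding genes it was 2.92 in FC and 3.49 in CON.

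Fkbp5 had the most regions over IgG-IP, 14 in FC and 10 in CON, which is 11.3 and 8.10 per 100 kb of gene and promoter. Per 100 kb the short gene Per1 was higher in CON, at 15.2 from 3 regions, and lower in FC, at 5.06 from 1 region. Of the Fkbp5 regions, 5 in FC and 4 in CON lay in the promoter, and 1 in each spanned the TSS. The region with the highest fold in CON was centred at -3.58 kb, with 31 reads in a 300-bp window where 5.11 were expected, 6.07-fold. Another cluster lay in an intron from 95.9 to 97.5 kb after the TSS, with 3 regions in FC, of which the strongest held 26 reads where 4.34 were expected, 5.99-fold, and 1 in CON of 3.52-fold. The intronic response element match at 97.2 kb lay in that FC region, which is why it was chosen for display. Of the promoter matches, the one at 1.51 kb lay in a region called in FC and the one at 4.61 kb in a region called in CON.

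Sgk1 held 7 regions in FC and 6 in CON. The highest fold was 7.14 in FC, where a window near 41.9 kb held 31 reads and 4.34 were expected. An overlapping region of CON at 42.1 kb had 24 reads where 5.11 were expected, 4.70-fold. Around the fourth TSS lay 4 regions in FC, between 108.6 and 110.7 kb, and 2 in CON, at 110.1 and 110.8 kb. The remaining regions were at 48.9 and 54.5 kb in FC and at 34.0, 40.1 and 41.3 kb in CON, of which the one at 40.1 kb had the highest fold of CON, 4.89. Per 100 kb, Sgk1 had 5.70 regions in FC and 4.89 in CON.

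In Per1, 1 region in FC and 1 of the 3 in CON lay in the promoter, centred at -0.72 and -0.82 kb, with 19 and 27 reads where 4.34 and 5.11 were expected. The other 2 of CON lay in the body, centred at 3.23 and 4.13 kb, 3.52-fold and 4.31-fold. The Per1 response element match at 4.21 kb lay in the second of these. In Nr3c1, 2 regions in FC and 3 in CON, 2.33 and 3.50 per 100 kb, all lay in the body and none of them touched a region of the other library. In Nr3c2, 2 regions were called in FC and 7 in CON, 1 of them in the promoter, and 1 region of each library overlapped. At 0.570 and 2.00 per 100 kb, Nr3c2 was below the rate over coding genes in both groups. Over all members, 15 of 26 FC regions touched a CON region and 14 of 29 CON regions touched an FC region. Among all regions over IgG-IP in the genome, 37.4% of 38450 in FC and 31.8% of 45376 in CON touched one of the other group.

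**Figure D4:**
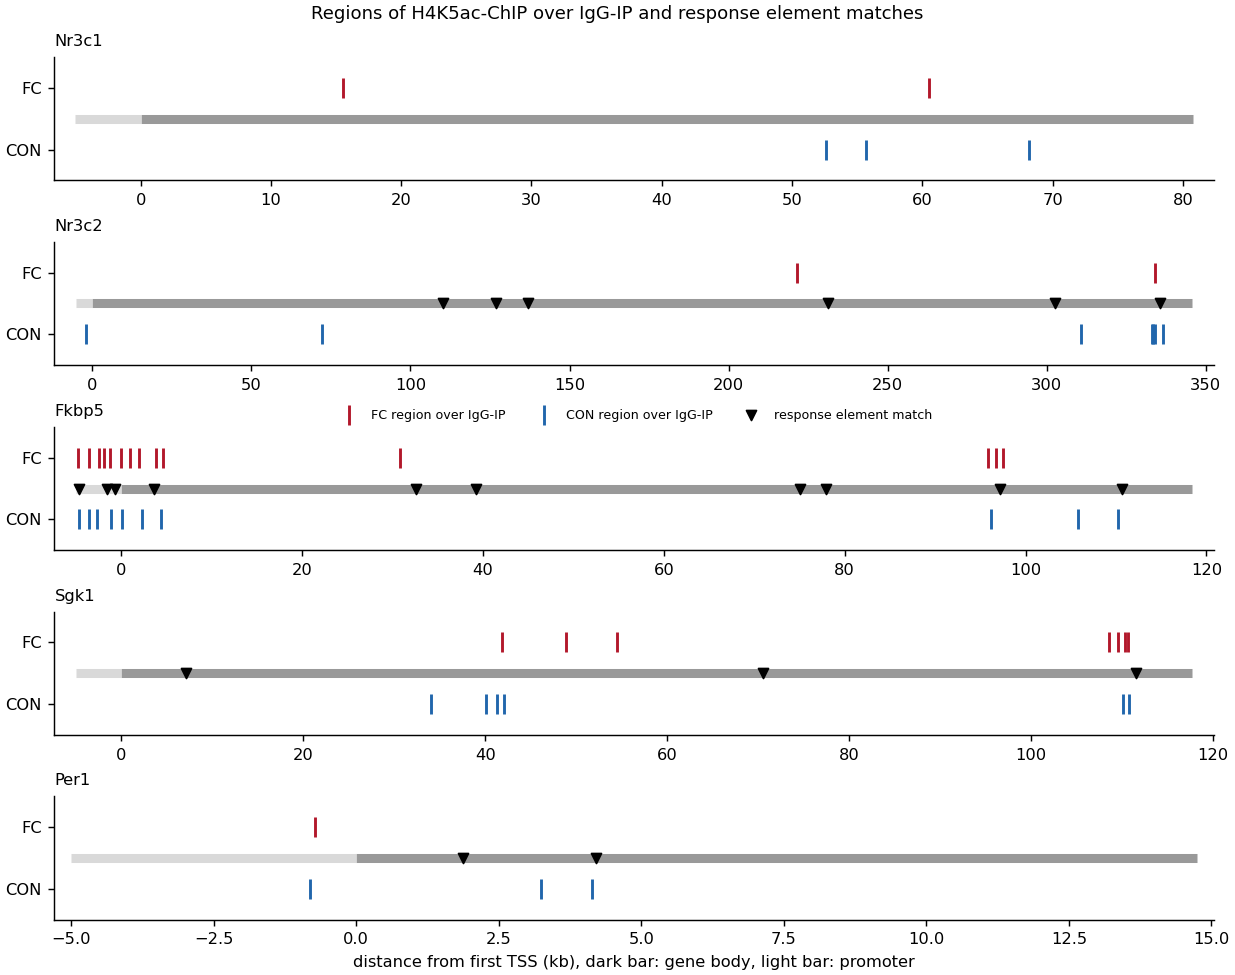
Position of the regions called over IgG-IP along Nr3c1, Nr3c2, Fkbp5, Sgk1 and Per1 (distance from the TSS in kb, horizontal axis), drawn for FC and CON. Fkbp5 regions gather in the promoter and up to 4.67 kb after the TSS and again between 95.9 and 97.5 kb, and Sgk1 regions lie between 34.0 and 54.5 kb and around 110 kb.

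The study was designed to compare H4K5ac after fear conditioning with the context control. Over gene bodies none of the 8 members had H4K5ac-ChIP densities in FC and CON that differed by 1.3 times in either direction, while 9.95% of all genes were higher in FC by that rule and 4.39% higher in CON. The ratio FC over CON was 1.13 (1.07 to 1.19) for Fkbp5, 1.04 (0.990 to 1.09) for Sgk1, 1.16 (1.02 to 1.33) for Per1 and 1.09 (0.588 to 2.02) for Crh. It was 1.13 (1.03 to 1.24) for Crhr1, 1.16 (1.04 to 1.3) for Crhr2, 0.940 (0.885 to 0.999) for Nr3c1 and 0.983 (0.951 to 1.02) for Nr3c2. The median over all genes was 1.03, and no gene had a second library by which the spread between animals could be judged.

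For each of the 8 bodies the input libraries of the groups differed by more than the H4K5ac-ChIP libraries did. FC input over CON input was 0.747 for Nr3c1, with a GC content of 39.0%, 1.03 for Nr3c2 (41.6%), 1.24 for Sgk1 (43.8%) and 1.37 for Fkbp5 (45.3%). It was 1.53 for Crhr2 (51.3%), 1.5 for Crhr1 (51.5%), 2.06 for Crh (52.6%, 45 and 17 reads) and 1.63 for Per1 (55.3%). With the input ratio taken off, the log2 difference of FC and CON over the body was 0.33 for Nr3c1, -0.27 for Fkbp5, -0.26 for Sgk1 and -0.49 for Per1. It was -0.92 for Crh, -0.41 for Crhr1, -0.40 for Crhr2 and -0.07 for Nr3c2. The direction for Fkbp5, Sgk1, Per1, Crh, Crhr1, Crhr2 and Nr3c1 thus turned with input. Over all gene bodies the median FC over CON ratio was 1.24 in input and 1.03 in H4K5ac-ChIP. A higher input in FC was therefore not particular to the members, and the share of all genes that turned was not computed. With the IgG-IP ratio taken off instead, Nr3c1 alone turned (0.07), Per1 and Crhr2 came to 0.60 and 0.53, and Fkbp5 and Sgk1 came to 0.13 each. The part of GC content in the differences was not tested.

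Promoters gave 1 member past 1.3 times in each direction, where 13.9% of all promoters were higher in FC and 9.63% higher in CON. The Crhr1 promoter was higher in FC, with 82 reads against 69 and a ratio of 1.35 (0.970 to 1.89), and its IgG-IP library had 12 reads in FC against 30 in CON. The Nr3c1 promoter was higher in CON, with 67 reads against 104 and a ratio of 0.733 (0.531 to 1.01). Both intervals reach 1. The other promoters had ratios of 1.01 for Nr3c2, 1.1 (0.939 to 1.29) for Fkbp5, 1.13 for Sgk1, 0.974 for Per1, 0.944 for Crh and 1.26 for Crhr2. With promoters of 2 kb, Fkbp5, Crhr1 and Crhr2 were at least 1.3 times higher in FC, where 21.8% of all promoters were. Fkbp5 stood at 1.39 (1.08 to 1.79), from 139 and 114 reads, and Crhr1 at 1.81 (1.09 to 3.05), from 43 and 27. Crhr2 stood at 1.57 (0.866 to 2.90), an interval that includes 1. Nr3c1 was again higher in CON, at 0.690 (0.446 to 1.06), and the share of all promoters in that direction was not computed. With input taken off over 5 kb, the log2 difference was -0.70 for Fkbp5, -0.97 for Per1, -0.48 for Crhr2, -0.20 for Crh and -0.15 for Crhr1. It was 0.23 for Nr3c2, 0.29 for Sgk1 and 0.05 for Nr3c1. Over all promoters the median FC over CON ratio of input was 1.14.

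**Figure D5:**
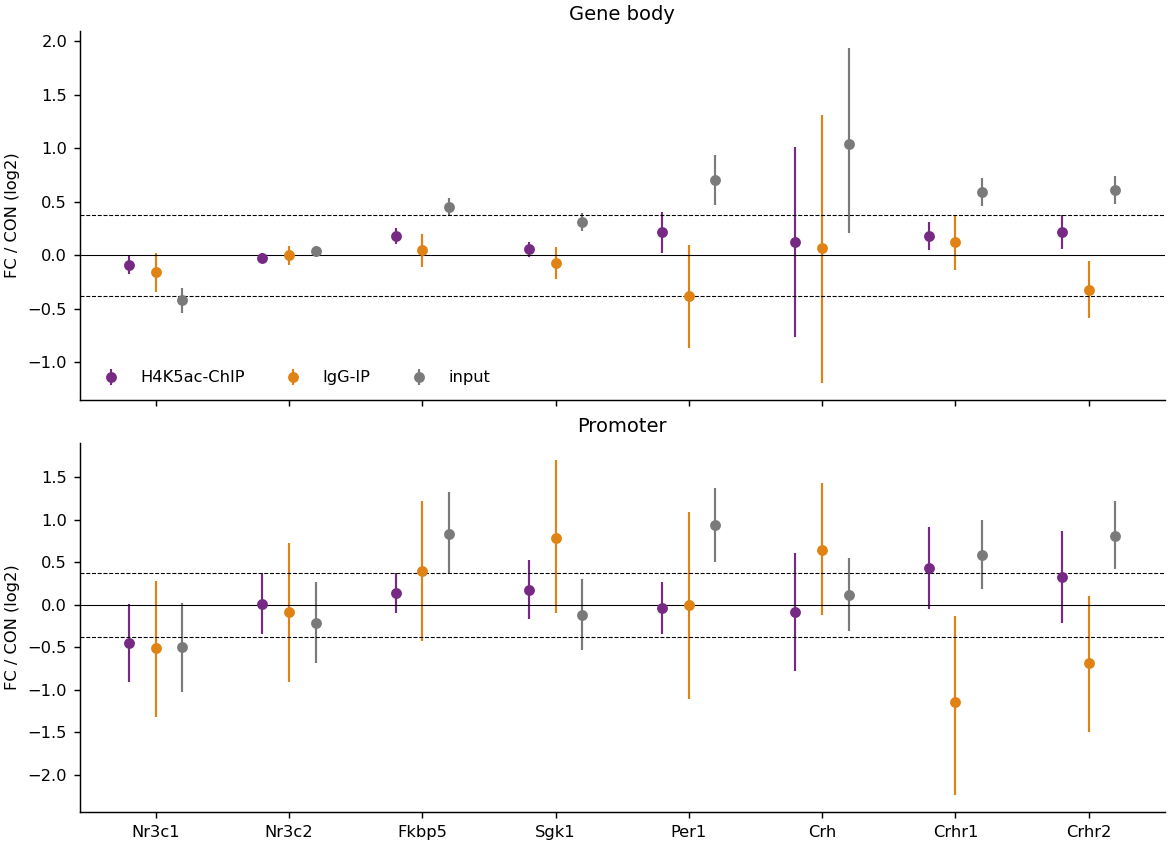
Ratio of FC to CON read density on a log2 axis for the 8 genes, over the promoter and the gene body, in the H4K5ac-ChIP, IgG-IP and input libraries, with exact 95% binomial intervals. H4K5ac body ratios lie between 0.940 and 1.16, and the input ratios of the same bodies between 0.747 and 2.06.

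Some shorter stretches had FC over CON ratios farther from 1 than the whole gene, and others did not. The stretch of Per1 next to the TTS, with the 0.818 and 0.543 RPKM given above, had an FC over CON ratio of 1.51 (1.15 to 1.98), beside 1.09 and 1.01 in the other stretches. Input in that stretch was 0.722 and 0.350 RPKM, and H4K5ac exceeded it by 1.13 times in FC and 1.55 times in CON, so the direction turned with input. Over IgG-IP it stood at 3.90 times in FC and 1.29 times in CON, which kept the direction. The 20 kb before the Nr3c1 promoter had 0.233 and 0.399 RPKM, a ratio of 0.583 (0.474 to 0.713), with 0.371 and 0.507 RPKM in input. Within 1 kb of the third Nr3c1 TSS the direction was the opposite, at 3.03 (1.13 to 9.47) from 16 and 6 reads. The fifth TSS was also higher in FC, at 1.58 (1.02 to 2.44) from 54 and 39 reads. Within 1 kb of the first Crhr1 TSS there were 38 and 20 reads, a ratio of 2.16 (1.23 to 3.92). These stretches were chosen after their values were seen.

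A region called directly between the H4K5ac-ChIP libraries was found in 1 member. It was higher in CON and lay in the Nr3c1 body, at chr18:39598151-39598450, 52.7 kb from the TSS, with 21 reads where 6.07 were expected from FC, 3.46-fold. Of all genes, 1.61% held a region higher in CON. No member held a region higher in FC, while 2.34% of all genes did.

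Other genes of the axis were taken from 3 fixed lists. All 11 genes of steroid access and the receptor complex (chaperones, steroid dehydrogenases and coregulators) had body ratios to IgG-IP of at least 1.5 in both groups, with medians of 1.89 in FC and 1.97 in CON, where 55.0% and 50.6% of all genes passed. Against input, 4 and 7 of them passed. Of 17 other glucocorticoid-induced genes, 15 passed in FC and 16 in CON, with medians of 2.62 and 2.36, and against input 10 and 14 passed. Of 11 genes of the CRH and pituitary-adrenal system, 4 passed in FC and 3 in CON, with medians of 1.09 and 1.1, and against input 0 and 4 passed, beside 22.7% and 41.2% of all genes.

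The highest FC ratios of these lists were those of Mt2, a metallothionein that binds metals, at 8.29 (2.13 to 71.0) from 36 and 2 reads, and Errfi1, an inhibitor of the EGF receptor, at 6.01 (4.69 to 7.81) from 888 and 68 reads. With 1 read kept per position and strand Errfi1 stood at 3.21 times (2.47 to 4.24) from 465 and 64 reads. Among the list genes that ratio was computed only for Errfi1 and Mt2, so the place of Errfi1 without repeated reads is not known. In CON, Mt2 stood at 2.20 times (0.823 to 7.39) and Errfi1 at 2.83 times (2.28 to 3.56). Mt2 has a close paralogue, Mt1, with which reads may be shared. The lowest in FC were the urocortin gene Ucn3 at 0.211 (0.121 to 0.356), from 22 and 48 reads, and the neuropeptide gene Adcyap1 at 0.515 (0.332 to 0.800), from 47 and 42. In CON, before scaling to library totals, H4K5ac-ChIP and IgG-IP held 42 and 34 reads in Ucn3 and 64 and 38 in Adcyap1. Those libraries held 35962226 and 16491741 reads in all, so after scaling both genes were below IgG-IP in CON as well. The highest and lowest places named here were taken in the FC library alone. Between FC and CON, the list genes past 1.3 times with at least 100 reads in both libraries were Errfi1, at 1.74 (1.56 to 1.93) from 888 and 581 reads, and Pdk4, a kinase that limits glucose oxidation, at 1.34 (1.1 to 1.64) from 222 and 188 reads, both higher in FC. Without repeated reads Errfi1 had 465 and 519 reads and a ratio of 1.05 (0.928 to 1.2), and Pdk4 1.34 (1.08 to 1.65). No region was called between the libraries in either gene.

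The coding gene of at least 2 kb with the body densities most like those of each member over the 6 libraries was found by Euclidean distance on the log2 scale among 18768 candidates. It was Papola for Nr3c2 (distance 0.051), Pi4ka for Sgk1 (0.077), Ppm1j for Crhr1 (0.085), Acvr1b for Per1 (0.091), March10 for Fkbp5 (0.111), Glrb for Nr3c1 (0.121), Gpa33 for Crhr2 (0.154) and Lilrb3 for Crh (0.385). Fkbp5 and March10 had 0.790 and 0.797 RPKM in FC H4K5ac-ChIP and 0.698 and 0.733 in CON.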

How the data were processed

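Chromatin of 6 libraries was sequenced on the SOLiD system. Reads were aligned by the authors to mm9 with Bioscope and deposited in BED format, 1 line per read, without normalization. The score deposited with each read is its mapping quality, which ran from 4 to 100, and every read had the same weight here. Samples were grouped by their labels. The members and gene lists were chosen with earlier results of these data known.

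Reads overlapping each promoter or gene body by at least 1 bp were counted with Python 3.11.15, NumPy 2.4.6 and SciPy 1.17.1, all reads included (11.5% to 17.8% of a library repeated a position and strand), and figures were drawn with matplotlib 3.10.9. Ratios of densities, scaled to library totals, carry exact binomial (Clopper-Pearson) intervals, densities exact Poisson intervals, and a ratio needed at least 20 reads in both libraries together. In counts simulated as independent Poisson draws, 95.8% of intervals of the FC body ratio to IgG-IP held the true ratio over 23839 genes. The intervals assume such draws, so this checks the calculation and not the spread between libraries.

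MACS itself was not used. Enriched regions were found with a scan that took the p-value and the genome size from the MACS settings of the study and set its own window and shift. Repeats of a position and strand were dropped, each read was moved 75 bp towards the fragment centre, and sliding windows of 300 bp (step 50 bp) were compared with the control. The expectation of a window was the highest among the rate of the control over the genome (effective size 1.87e+09) and over 1, 5 and 10 kb around it. Scaled to the H4K5ac-ChIP library tested, the genome rate is the same for any control, 4.34 reads per window in FC and 5.11 in CON. Overlapping windows whose one-sided Poisson p was below 1e-05 made up a region.

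Named genes were the 8 members, the list genes with the 2 highest and 2 lowest FC body ratios to IgG-IP, those past 1.3 times between FC and CON with at least 100 reads in both libraries, and the nearest gene of each member. Alternatives were 1 read per position, another control, promoters of 2 kb, the longest transcript, genes of the same GC content, a mapping quality of at least 20 and other scan settings. A further sequence is not reported here.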

Additional observations from a re-analysis of the deposited data

How the results depend on the processing

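Each count of members was recomputed under the alternatives, and 60 of 80 values stayed within 1.5 times the reported count. Of 344 ratios of single members, 278 stayed within their counting interval. The sign of the log2 ratio changed in 41, of which 8 belonged to ratios past 1.5 times a control or 1.3 times between FC and CON as reported and are given at the end. No paired analysis was possible because each group had 1 library per antibody.

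Relative to the median gene of like GC content, 1 member (Nr3c1) in place of 6 passed 1.5 times IgG-IP over the body in each group, and with input as the control 2 did in FC. Between FC and CON over the body, less IgG-IP, 2 members (Per1 and Crhr2) were higher in FC, and less input, 4 (Per1, Crh, Crhr1 and Crhr2) were higher in CON. For promoters higher in FC, the 1 member became 0 with 1 read per position, with GC content or less input, 3 with promoters of 2 kb and 2 less IgG-IP. For promoters higher in CON, it became 0 with 1 read per position or the longest transcript, 3 less input (Fkbp5, Per1 and Crhr2) and 2 less IgG-IP (Sgk1 and Crh). Promoters of 2 kb left 3 members in FC and 4 in CON with more than 50 reads, a shorter stretch holding fewer reads. At a Poisson p below 1e-07, 3 members kept a region over IgG-IP in FC (Nr3c1, Fkbp5 and Sgk1), and 0 had a region higher in CON than FC. With all reads in the scan, 4 members (Nr3c1, Nr3c2, Fkbp5 and Sgk1) had a region higher in FC and 2 a region higher in CON, beside 14.6% and 7.46% of all genes. The share of all genes was not computed for the counts less input or less IgG-IP, with 1 read per position or with the longest transcript. Nor was it computed for FC over CON with GC content, for 50 reads in 2 kb or at p below 1e-07. Those counts describe the members only and cannot be set against all genes.

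On the log2 scale, the Crhr1 body ratio to IgG-IP became -0.34 in FC and -0.20 in CON with GC content, and -0.036 in FC with input. The Per1 body in CON became -0.063 with GC content. The Crhr1 promoter in FC became -0.37 with input. Between FC and CON, the Nr3c1 promoter became 0.051 less input and 0.057 less IgG-IP, and the Crhr1 promoter -0.15 less input. The cause of these differences was not tested.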
